A study of Mus musculus with 10 samples.

Results

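The genes described here encode the factors that start and extend protein chains on the ribosome in the mouse. They were taken by name: every gene whose symbol begins with Eif1 to Eif6 (initiation) or with Eef1 or Eef2 (elongation), with processed pseudogenes left out. The rule used no measured value. It found 71 of the 29657 genes in the table, 57 for initiation and 14 for elongation. Of these, 66 had an FPKM (mapped fragments scaled to transcript length and to library size) of at least 0.5 in at least 5 libraries and were tested, 53 for initiation and 13 for elongation. The other 5 were near or at 0 and were not tested: Eif5a2, Eif4a3l1, Eif4a3l2, Eif1ad15 and Eef1ece2.

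The study measured liver mRNA in 10 C57BL/6 mice, all fed CDAHFD for 8 weeks, a diet without choline and high in fat that is used to bring on steatohepatitis. The 5 control mice carried the genotype label WT and received the vector AAV8-NC by vein. The other 5 received AAV8-TBG-galectin-3 by vein and were labelled as a hepatocyte-specific knockdown of galectin-3; the TBG promoter drives transcription in hepatocytes, and the sources used here do not give what the vector encodes. Within each group the libraries are numbered 1 to 5, and sex and age are not given, so p-values measure the spread between these 10 libraries. In whole liver the targeted gene did not differ in the named direction. Lgals3 was at 70.8 ± 22.9 FPKM (SD, n = 5) in control livers and 74.2 ± 20.1 FPKM (SD, n = 5) in the others. The log2 difference was 0.08 (SE 0.25, limma adjusted p = 0.856). A whole-liver value cannot separate Lgals3 of hepatocytes from that of other cells, so it does not test a knockdown in hepatocytes. The second group is therefore called the labelled knockdown throughout. Hepatocytes are a part of whole liver, and in bulk tissue fewer cells of a type cannot be told apart from less RNA per cell.

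In the textbook scheme, eIF2 brings the initiator tRNA to the small ribosomal subunit and eIF3 binds that subunit. The cap-binding set eIF4E, eIF4G and eIF4A loads the subunit on the mRNA. The subunit then scans to a start codon under the control of eIF1, eIF1A and eIF5. Elongation follows, with eEF1A delivering aminoacyl-tRNA, the eEF1B subunits recharging eEF1A with GTP, and eEF2 moving the ribosome along. Liver makes most plasma proteins, and both steps are regulated there by nutrients and by stress kinases.

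The factors were unequal in level by more than 3 orders of magnitude. Eef1a1 led with a mean of 1694 FPKM over the 10 libraries, followed by Eef2 at 417 FPKM, Eif5a at 148 FPKM and Eif1 at 132 FPKM. Summed over genes, the initiation factors came to 1377 ± 47.5 FPKM (SD, n = 5) in control and 1278 ± 86.8 FPKM (SD, n = 5) in labelled knockdown livers. The elongation factors came to 2414 ± 241 and 2173 ± 244 FPKM (SD, n = 5 each). For both sums the ranges of the 2 groups overlapped. The lowest elongation sum, 1747 FPKM, was in the library of labelled knockdown 1, where Eef1a1 was also lowest.

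**Figure D1:**
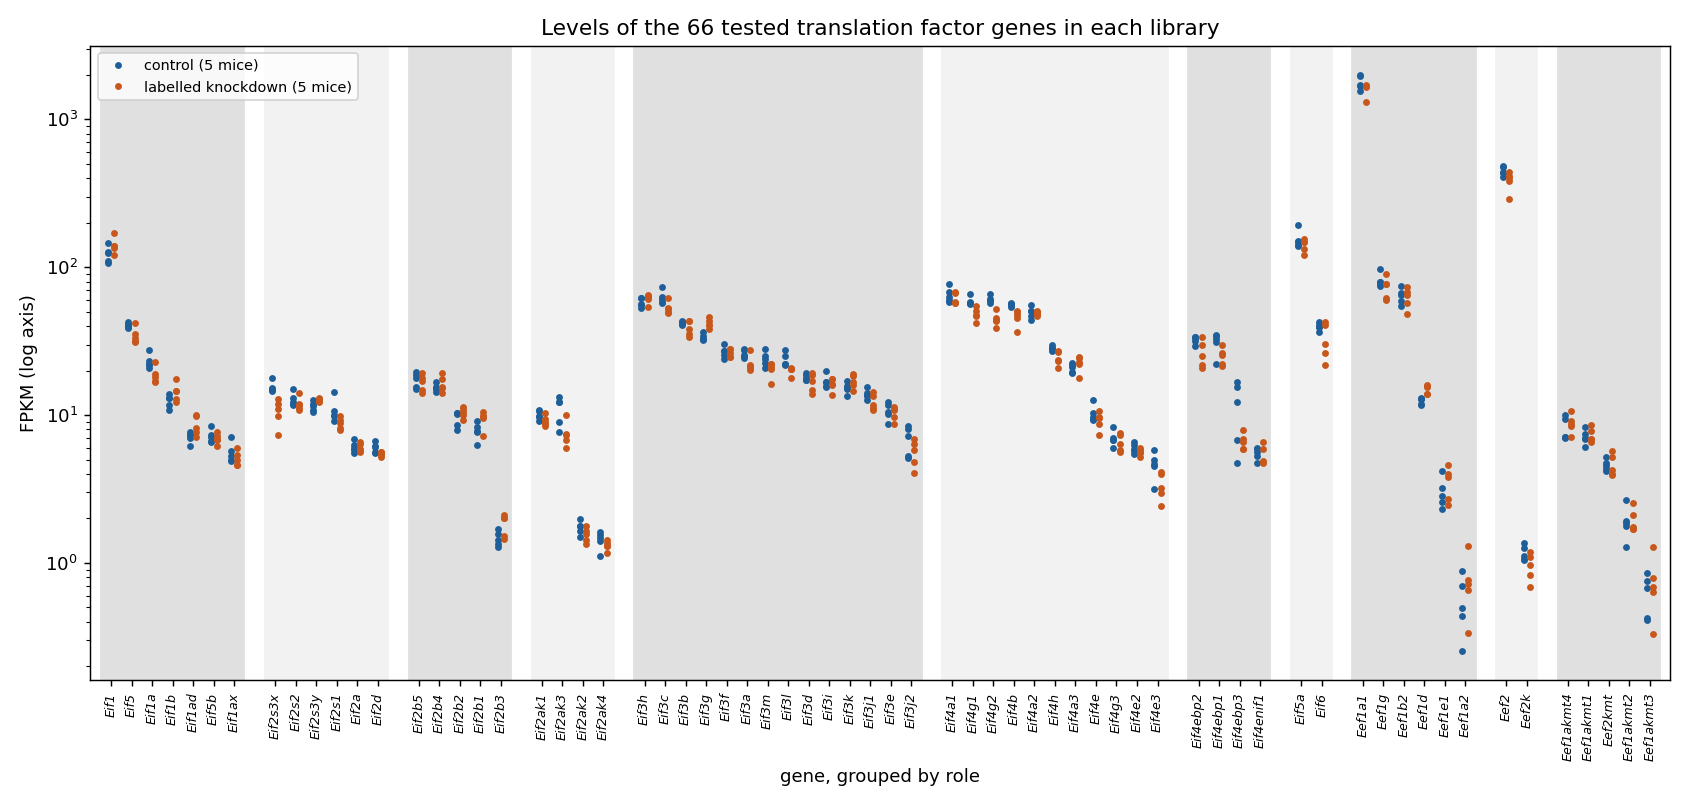
Level of each tested factor in FPKM (log axis), with 1 point for each of the 10 libraries; shaded blocks are role groups. Eef1a1 and Eef2 stand above all initiation factors, and the control and labelled knockdown points overlap for most genes.

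Differences were tested with limma on log2(FPKM + 1) over all 13471 genes that passed the same filter, and a gene was called at a Benjamini-Hochberg adjusted p under 0.05 over all of them. Among initiation factors, 3 of 53 were lower in labelled knockdown livers (Eif4g2, Eif4g1 and Eif2s3x) and 1 was higher (Eif3g). Among elongation factors, 0 of 13 were lower and 1 was higher (Eef1d). Over all genes tested, 9.65% were called lower and 7.13% higher (1300 and 960 genes, or 1020 and 1212 with median-of-ratios scaling), so both shares of called initiation factors lay under the background, and 1 of 13 elongation factors lay near it. At an unadjusted p under 0.05, 15 initiation factors were lower and 2 higher, beside 19.6% and 13.9% of all genes, while 0 elongation factors were lower and 1 was higher. The median log2 difference was -0.11 for initiation factors, 0.04 for elongation factors and -0.04 for all tested genes. Within elongation it was 0.06 for the 6 eEF1 complex genes, -0.19 for Eef2 and its kinase, and 0.04 for the 5 tested methyltransferases. The elongation median thus mixes roles that lay on different sides of 0. So does the initiation median, with 0.13 for the 5 eIF2B genes and -0.30 for the 4 genes of the eIF4E-binding group. The initiation list also counts genes of inhibitors, such as the eIF2 kinases and the eIF4E-binding proteins. Of the initiation factors, 41 of 53 lay below 0, and of the elongation factors 6 of 13, beside 55.6% of all tested genes; the counts by role given hereafter stand against the same share. In the authors' deposited table, 0 of the 71 genes carried the mark of significance. The unmarked genes included some with an authors' q-value (test not named) under 0.05, such as Eif4g2 at 0.00168. The missing mark therefore does not mean that every q-value was above 0.05.

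**Figure D2:**
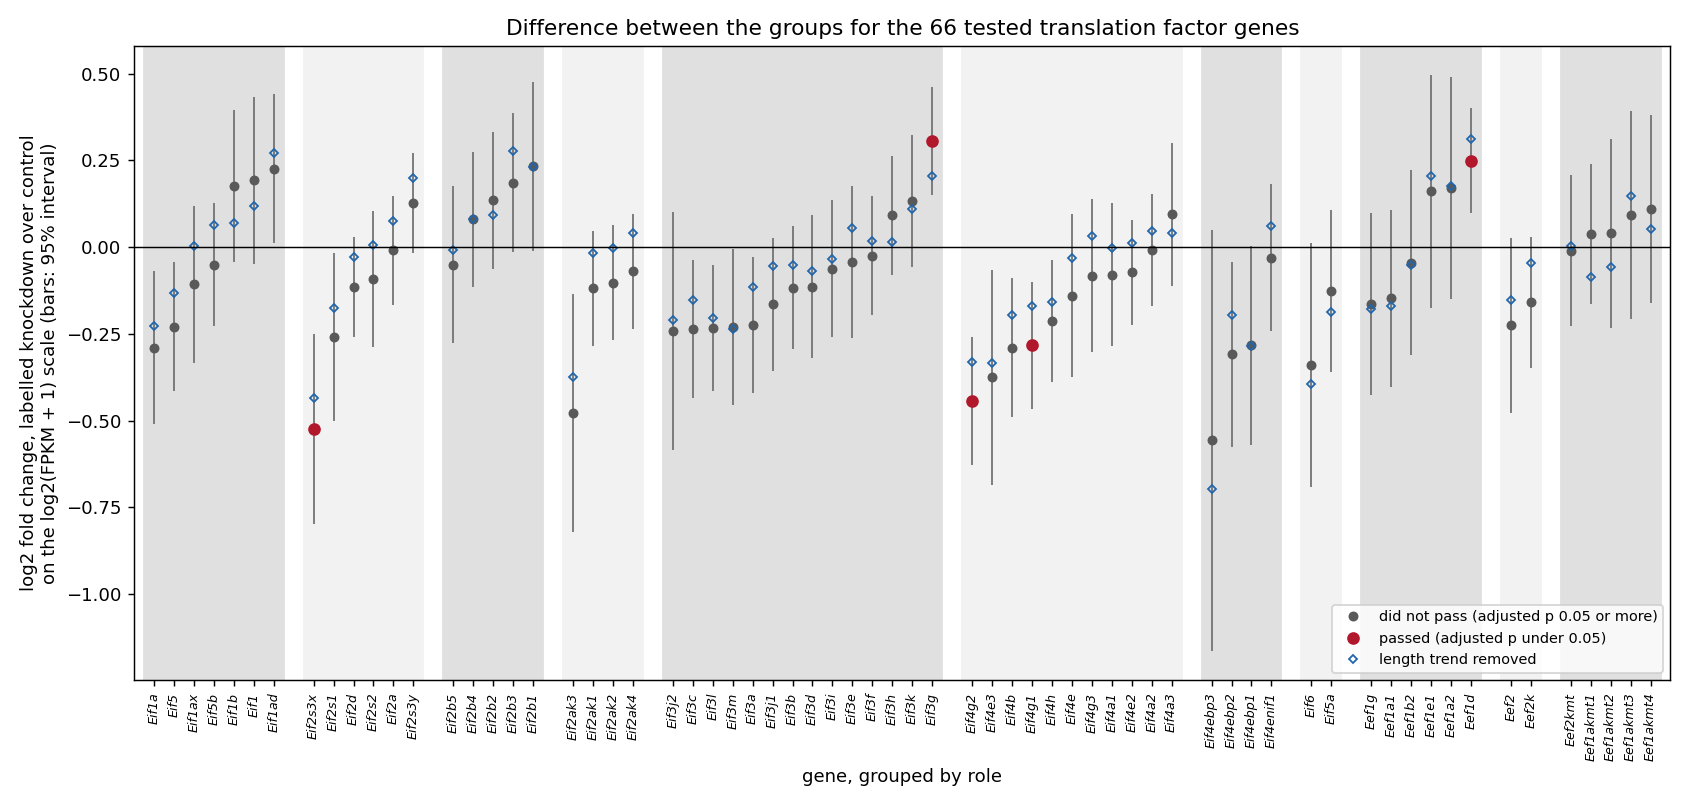
Log2 difference in FPKM + 1, labelled knockdown minus control, with its 95% interval for each tested factor, by role group; open diamonds show the difference with each library's trend with transcript length removed. Red symbols are the 5 called genes, and most initiation factors lie below 0.

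The cap-binding and helicase group held 2 of the 3 lower genes and lay almost wholly on the lower side: 10 of its 11 tested members were below 0. Its median log2 difference was -0.14, and -0.03 with each library's trend with transcript length removed, where 1 member was called lower. Its summed level was 368, 367, 358, 354 and 389 FPKM in control livers and 303, 304, 318, 350 and 329 FPKM in labelled knockdown livers. The highest labelled knockdown sum stood just under the lowest control sum, so in FPKM as deposited the groups did not overlap. Median-of-ratios scaling factors ran from 0.927 in labelled knockdown 5 to 1.06 in control 2, a spread wider than this gap. Divided by these factors, the sum of labelled knockdown 5 would lie above that of control 2. The separation therefore holds only in FPKM as deposited.

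Eif4g2 (ENSMUSG00000005610) encodes DAP5, a relative of the eIF4G scaffold that lacks the eIF4E-binding region and serves cap-independent and alternative initiation. It was at 57.5, 60.4, 60.6, 60.1 and 65.8 FPKM in control livers, and at 38.7, 43.0, 44.0, 52.3 and 45.3 FPKM in labelled knockdown livers. All 5 labelled knockdown values lay below all control values. The log2 difference was -0.44 (SE 0.08, limma adjusted p = 0.0103), a ratio of 0.647 to 0.835 at 95% confidence. It was the only lower member called in all 10 fits that left out 1 library and in all 10 other settings at the same threshold; Eif2s3x was called in the former but not in all of the latter.

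Eif4g1 (ENSMUSG00000045983) encodes the main scaffold that bridges eIF4E, eIF4A and eIF3. Control livers were at 57.3, 56.5, 57.1, 57.9 and 65.7 FPKM, and labelled knockdown livers at 41.7, 46.6, 47.7, 50.8 and 54.7 FPKM. The groups did not overlap, although the highest labelled knockdown value came within a few units of the lowest control value. The log2 difference was -0.28 (SE 0.08, limma adjusted p = 0.0407), and it was called in only 2 of the 10 fits that left out 1 library, where the adjusted p ran from 0.0373 to 0.0805; with median-of-ratios scaling it was 0.129. The pair kept nearly equal levels: the ratio of Eif4g1 to Eif4g2 was 0.967 ± 0.0288 in control and 1.09 ± 0.0833 in labelled knockdown livers (SD, n = 5 each). The third scaffold gene, Eif4g3, was at 6.97 ± 0.855 and 6.54 ± 0.893 FPKM (SD, n = 5 each; limma adjusted p = 0.600).

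Eif4b, a cofactor of the eIF4A helicase, did not pass by a small margin. Its values were 57.3, 54.1, 55.4, 56.1 and 56.8 FPKM in control livers and 36.2, 45.0, 50.1, 50.2 and 47.9 FPKM in labelled knockdown livers. Control livers were tightly grouped and the labelled knockdown ones spread well below them with no overlap. The log2 difference was -0.29 (SE 0.09, limma adjusted p = 0.0502). The second cofactor, Eif4h, was at 28.3 ± 0.916 and 24.3 ± 2.65 FPKM (SD, n = 5 each; limma adjusted p = 0.0898), again without overlap. Across all tested genes, 7.48% had labelled knockdown values wholly below the control values, and among the 53 initiation factors there were 6: Eif4b, Eif4g1, Eif4g2, Eif4h, Eif2s3x and Eif3l. The same pattern upward held for 1 initiation factor and 1 elongation factor, beside 5.66% of all genes. All of these separations are in FPKM as deposited. Divided by the median-of-ratios scaling factors, the groups would overlap for Eif4b, Eif4g1, Eif4h and Eif3l. They would stay apart for Eif4g2 and Eif2s3x.

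The helicase and the cap-binding protein themselves showed no call. Eif4a1, the major helicase gene and the most abundant member of the group, was at 67.6, 63.3, 59.9, 58.0 and 77.4 FPKM in control livers and 67.7, 57.3, 58.6, 67.1 and 57.1 FPKM in labelled knockdown livers, which overlapped widely (limma adjusted p = 0.588; 95% interval of the ratio 0.820 to 1.09). Its near copy Eif4a2 was at 50.4, 55.2, 50.5, 46.5 and 44.1 FPKM in control livers and 49.4, 48.5, 46.7, 50.4 and 49.8 FPKM in labelled knockdown livers. All of these lay within the control range (limma adjusted p = 0.952; 95% interval of the ratio 0.889 to 1.11). The pseudogene Eif4a-ps4, left out by the naming rule, was listed at a mean of 48.1 FPKM, about as high as Eif4a2, so reads may be divided between these copies. Eif4e, the cap-binding protein, was at 9.41, 9.70, 10.3, 9.20 and 12.6 FPKM in control livers and 9.69, 7.37, 9.62, 10.7 and 8.72 FPKM in labelled knockdown livers, which overlapped (limma adjusted p = 0.385). Eif4e2, a cap-binding relative that represses translation, was between 5.45 and 6.58 FPKM in control livers and between 5.17 and 6.02 FPKM in labelled knockdown livers (limma adjusted p = 0.487). Its divergent relative Eif4e3 was lower on average, 4.63 ± 0.952 against 3.33 ± 0.695 FPKM (SD, n = 5 each), and did not pass (limma adjusted p = 0.0882).

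**Figure D3:**
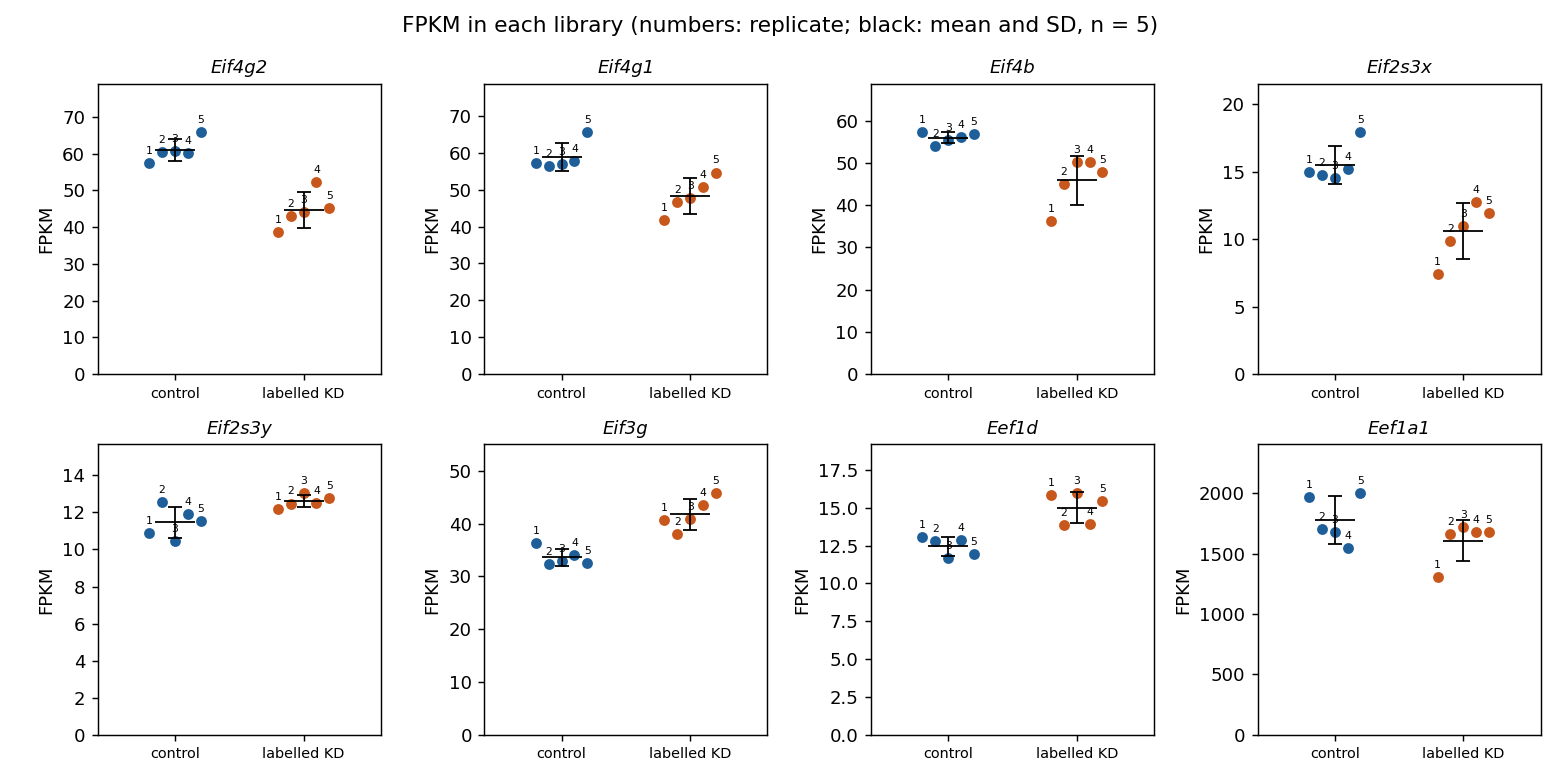
FPKM in each of the 5 control and 5 labelled knockdown livers for 8 factors, with group means and SD bars. Eif4g2, Eif4g1, Eif4b and Eif2s3x are lower without overlap, Eif3g and Eef1d are higher without overlap, and Eif2s3y and Eef1a1 overlap.

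The genes of the eIF2 gamma subunit, which binds GTP and the initiator tRNA, come as an X-linked and a Y-linked copy in the mouse, and the copies parted. Eif2s3x (ENSMUSG00000035150) was at 14.9, 14.7, 14.5, 15.2 and 17.9 FPKM in control livers and at 7.39, 9.88, 11, 12.8 and 11.9 FPKM in labelled knockdown livers, with no overlap. Its log2 difference of -0.52 (SE 0.12, limma adjusted p = 0.0205) was the largest downward difference among the called members. Without the filter on low values the adjusted p (limma) was 0.0512 for Eif2s3x and 0.0657 for Eif4g1. Eif2s3y (ENSMUSG00000069049) was at 10.9, 12.6, 10.5, 11.9 and 11.5 FPKM in control livers and at 12.2, 12.5, 13.1, 12.5 and 12.8 FPKM in labelled knockdown livers. The Y-linked values overlapped and did not pass (log2 difference 0.13, SE 0.07, limma adjusted p = 0.203; 95% interval of the ratio 0.988 to 1.21). Within each liver, the ratio of the X-linked to the Y-linked copy was 1.35 ± 0.143 in control livers (SD, n = 5; 1.17 to 1.56). In labelled knockdown livers it was 0.838 ± 0.156 (SD, n = 5; 0.607 to 1.02), so the ranges did not overlap. The copies together came to 26.9 ± 1.70 and 23.2 ± 2.30 FPKM (SD, n = 5 each). They share most of their coding sequence, and reads could be assigned to either where they do not differ.

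The copies start from unlike sequences, which are shown because the X-linked copy was called and its partner was not. The 120 bases before the transcription start are given below for both, beside those of Eif4g1 and Eif3g, from RefSeq on GRCm38.p6. Capitals mark matches to the amino acid response motif TGATGNAA (in Eif2s3x, on the opposite strand) and to the E-box CACGTG (in Eif4g1), searched on both strands. RefSeq entries were matched for 53 of the 71 symbols, with 68 windows; Eif4g2 and Eef1d were not among them.
Eif2s3x, chrX:94212652-94212771, minus strand: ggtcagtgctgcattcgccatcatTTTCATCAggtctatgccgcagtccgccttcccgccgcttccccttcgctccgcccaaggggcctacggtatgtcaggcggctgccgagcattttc
Eif2s3y, chrY:1010475-1010594, plus strand: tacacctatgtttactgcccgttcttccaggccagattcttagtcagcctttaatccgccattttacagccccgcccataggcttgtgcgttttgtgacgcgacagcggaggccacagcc
Eif4g1, chr16:20672607-20672726, plus strand: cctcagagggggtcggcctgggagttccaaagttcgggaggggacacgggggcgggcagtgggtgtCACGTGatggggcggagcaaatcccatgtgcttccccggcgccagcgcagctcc
Eif3g, chr9:20898591-20898710, minus strand: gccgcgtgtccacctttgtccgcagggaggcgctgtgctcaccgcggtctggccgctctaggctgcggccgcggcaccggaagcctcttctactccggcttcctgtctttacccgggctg

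In windows from 250 bases before to 50 bases after the start, TGATGNAA was found in 2 of 68 windows of these factors (2.94%) and in 2.36% of the windows of tested genes. CACGTG, the core E-box bound by Myc and its relatives, was found in 15 of 68 windows (22.1%), beside 9.97% for tested genes; 3 of the 15 belong to Eif5a, which has several starts. The CCAAT box, searched on both strands with matches to other motifs free to overlap it, was in 26.5% of the factors' windows and in 37.5% of those of tested genes. These matches describe letters and not binding.

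Many mRNAs of the translation machinery begin with a run of pyrimidines, the terminal oligopyrimidine tract, through which mTORC1 sets their translation. An unbroken run of at least 8 pyrimidines across the annotated start was found in 5 of 68 windows (7.35%), against 3.97% for tested genes: Eef1a1, Eif2b5, Eif2s3x, Eif3f and Eif3l. Only a run covering the annotated base was counted. A gene not listed, such as Eef2, Eef1b2 or Eif4b, may therefore still begin with such a tract. The 30 bases centred on the start are shown for the called Eif2s3x and for Eif3f, with the run in capitals, beside the Y-linked copy, whose pyrimidine run begins 1 base after the annotated start and so was not counted.
Eif2s3x, chrX:94212637-94212666, minus strand: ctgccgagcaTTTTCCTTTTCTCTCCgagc
Eif3f, chr7:108934400-108934429, plus strand: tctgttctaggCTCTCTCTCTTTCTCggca
Eif2s3y, chrY:1010580-1010609, plus strand: gcggaggccacagccacttccttctttcgt
Of these 5 genes, Eif2s3x was called and the other 4 were not. Eef1a1 is described with the elongation factors, and Eif3f was at 26.9 ± 2.33 and 26.4 ± 1.78 FPKM (SD, n = 5 each; limma adjusted p = 0.849).

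The other eIF2 subunits had no call. Eif2s1, the alpha subunit that the stress kinases phosphorylate, was at 10.8 ± 2.06 and 8.79 ± 0.784 FPKM (SD, n = 5 each; limma adjusted p = 0.125), and Eif2s2, the beta subunit, at 12.8 ± 1.34 and 11.9 ± 1.29 FPKM (SD, n = 5 each; limma adjusted p = 0.503). eIF2B, the exchange factor that reloads eIF2 with GTP, lay on the other side: 4 of its 5 subunits were above 0, and 0 were called (limma; 0 at an unadjusted p under 0.05), with a lowest adjusted p of 0.167 for Eif2b1. Its most abundant subunit, the catalytic Eif2b5, was at 18.6, 15.5, 14.9, 17.8 and 19.5 FPKM in control livers and 14.7, 14.2, 17.8, 17.1 and 19.4 FPKM in labelled knockdown livers, which overlapped (limma adjusted p = 0.761).

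Of the 4 eIF2 kinases, which slow initiation under stress, 0 were called and all 4 lay below 0; at an unadjusted p under 0.05 there was 1, Eif2ak3. The kinase of endoplasmic reticulum stress, Eif2ak3 (PERK), was nearest to a call, at 7.70, 12.3, 8.99, 13.3 and 12.3 FPKM in control livers and 6.78, 6.03, 7.40, 10.03 and 7.31 FPKM in labelled knockdown livers. The ranges overlapped, since control 1 and control 3 were low and labelled knockdown 4 was high (log2 difference -0.48, SE 0.16, limma adjusted p = 0.0558; 0.0250 to 0.124 over the fits that left out 1 library). The haem-regulated kinase Eif2ak1, the most abundant by a little, was at 9.10, 9.81, 10.7, 9.78 and 10.9 FPKM in control livers and 8.46, 9.42, 8.67, 10.4 and 8.93 FPKM in labelled knockdown livers (limma adjusted p = 0.293). The double-stranded RNA kinase Eif2ak2 and the amino acid sensor Eif2ak4 had mean levels of 1.65 and 1.37 FPKM. With the length trend removed, Eif2ak4 lay above 0, at a log2 difference of 0.04. The median of the 4 kinases moved from -0.11 to -0.009 in that fit.

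In the scanning group, 0 of 7 tested genes were called by limma. At an unadjusted p under 0.05, 1 was higher, Eif1ad, and 2 were lower, Eif1a and Eif5. Eif1ad is grouped here by its name (log2 difference 0.23, limma adjusted p = 0.131). Eif1, which guards start codon choice, was the most abundant, at 124, 107, 126, 146 and 111 FPKM in control livers and 120, 139, 138, 134 and 170 FPKM in labelled knockdown livers. The ranges overlapped, and the difference did not pass (log2 difference 0.19, limma adjusted p = 0.246; 95% interval of the ratio 0.966 to 1.35). Its close copy Eif1b was at 13.9, 11.6, 10.9, 13.1 and 13.1 FPKM in control livers and 17.5, 12.3, 14.5, 12.9 and 14.5 FPKM in labelled knockdown livers (limma adjusted p = 0.238), far below Eif1 in both groups. The partners of Eif1 in scanning lay on the other side: Eif1a was at 23.1 ± 2.60 and 18.7 ± 2.48 FPKM (SD, n = 5 each; limma adjusted p = 0.0683). Eif5, which triggers GTP hydrolysis on eIF2, was at 40.6 ± 1.33 and 34.7 ± 4.29 FPKM (SD, n = 5 each; limma adjusted p = 0.0836). Eif1ax, the X-linked relative of Eif1a, was at 5.59 ± 0.913 and 5.09 ± 0.596 FPKM (SD, n = 5 each; limma adjusted p = 0.491). Eif1a was thus the more abundant copy, with a ratio to Eif1ax of 4.16 ± 0.281 in control and 3.67 ± 0.0942 in labelled knockdown livers (SD, n = 5 each). By library, Eif1a was at 22.2, 21.9, 20.7, 23.2 and 27.5 FPKM in control livers and 16.7, 16.9, 19.0, 22.8 and 18.2 FPKM in labelled knockdown livers, where labelled knockdown 4 alone reached the control range.

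eIF3 is the largest initiation factor, and its 14 genes ranged in mean level from 6.2 FPKM (Eif3j2) to 59.5 FPKM (Eif3h). Only Eif3g was called, and it was higher, while 11 of the 14 lay below 0. Eif3g (ENSMUSG00000070319), a subunit that binds RNA and works in scanning, was at 36.2, 32.3, 32.8, 34.1 and 32.5 FPKM in control livers and at 40.7, 38.1, 40.8, 43.5 and 45.8 FPKM in labelled knockdown livers. The lowest labelled knockdown value stood above the highest control value (log2 difference 0.30, SE 0.07, limma adjusted p = 0.0191; 95% interval of the ratio 1.11 to 1.38). It was called in 9 of the 10 fits that left out 1 library, the exception being the fit without control 2, at 0.0509.

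The rest of the complex did not follow Eif3g. Eif3h, its most abundant subunit, was at 62.1, 55.4, 52.9, 56.0 and 61.5 FPKM in control livers and 63.9, 63.2, 61.0, 65.1 and 53.9 FPKM in labelled knockdown livers (limma adjusted p = 0.440). Eif3l, a peripheral subunit, was at 23.8 ± 2.47 and 20.02 ± 1.29 FPKM (SD, n = 5 each; limma adjusted p = 0.0738), and the core subunit Eif3c at 62.8 ± 6.58 and 53.1 ± 5.03 FPKM (SD, n = 5 each; limma adjusted p = 0.0952). Summed over its subunits, the complex came to 379 ± 20.2 and 362 ± 23.1 FPKM (SD, n = 5 each).

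The eIF4E-binding proteins hold eIF4E away from eIF4G until mTORC1 phosphorylates them. Of the 4 genes of this group 0 were called by limma, and 1 was lower at an unadjusted p under 0.05. All 4 lay below 0, and their summed level was 80.0 ± 10.5 FPKM in control and 63.4 ± 7.30 FPKM in labelled knockdown livers (SD, n = 5 each). The group also counts Eif4enif1, which encodes another protein that binds eIF4E. Its log2 difference was -0.03 (limma adjusted p = 0.849), and 0.06 with the length trend removed. Eif4ebp2, the most abundant, was at 33.4, 31.9, 33.5, 33.5 and 29.2 FPKM in control livers and 21.9, 33.6, 29.9, 25 and 20.9 FPKM in labelled knockdown livers (limma adjusted p = 0.101). Labelled knockdown 2 was as high as the highest controls and the other 4 lay below most of them. Eif4ebp1 was at 31.1, 32.7, 34.8, 34.0 and 22 FPKM in control livers, where control 5 stood apart, and at 21.6, 26.2, 25.5, 30.0 and 22.3 FPKM in labelled knockdown livers. The adjusted p of Eif4ebp1 (limma) was 0.154 with control 5 and 0.0251 without it. Eif4ebp3 spread the most of the 3 in control livers, at 16.8, 15.5, 12.3, 6.80 and 4.71 FPKM, while labelled knockdown livers stayed between 5.89 and 7.89 FPKM (limma adjusted p = 0.184, and 0.0301 without control 5).

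eIF5A, which relieves stalled ribosomes and bears the amino acid hypusine, and eIF6, which keeps the large subunit apart until it is needed, had no call. Eif5a was at 142, 139, 150, 149 and 192 FPKM in control livers and 121, 133, 148, 147 and 156 FPKM in labelled knockdown livers, which overlapped (limma adjusted p = 0.437). Its second copy Eif5a2 was hardly present, at a mean of 0.191 FPKM. Eif6 was even in control livers, at 36.7, 40.6, 39.7, 42.6 and 39.6 FPKM, and uneven in labelled knockdown livers, at 21.7, 26.3, 30.1, 40.5 and 42.4 FPKM. The first 3 of these lay below every control and the last 2 within the control range (log2 difference -0.34, SE 0.16, limma adjusted p = 0.162).

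Of the elongation factors, the one called gene belongs to the eEF1B exchange complex. Eef1d (ENSMUSG00000055762), the delta exchange subunit, was at 13.1, 12.8, 11.7, 12.9 and 11.9 FPKM in control livers and at 15.8, 13.8, 16.0, 13.9 and 15.5 FPKM in labelled knockdown livers. All labelled knockdown values lay above all control values (log2 difference 0.25, SE 0.07, limma adjusted p = 0.0331; 95% interval of the ratio 1.07 to 1.32). The call was held in 3 of the 10 fits that left out 1 library (without control 1, labelled knockdown 2 or labelled knockdown 4), and the adjusted p reached 0.0807 over the 10. The other subunits of the exchange complex did not follow: Eef1b2 was at 64.2 ± 7.71 and 62.5 ± 9.87 FPKM (limma adjusted p = 0.825), and Eef1g at 81.7 ± 8.88 and 73.3 ± 12.4 FPKM (limma adjusted p = 0.362; SD, n = 5 each).

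The carriers themselves overlapped between groups. Eef1a1 (ENSMUSG00000037742) was at 1970, 1708, 1677, 1546 and 2004 FPKM in control livers and at 1304, 1663, 1717, 1678 and 1677 FPKM in labelled knockdown livers. Apart from labelled knockdown 1, which was the lowest of all 10, the labelled knockdown values lay among the control values (log2 difference -0.15, SE 0.12, limma adjusted p = 0.402; 95% interval of the ratio 0.756 to 1.08). The tissue-restricted isoform Eef1a2, known from muscle and neurons, was near the limit of 0.5 FPKM, at 0.554 ± 0.244 and 0.757 ± 0.349 FPKM (SD, n = 5 each). Eef2, the translocase, was at 482, 434, 440, 409 and 473 FPKM in control livers and 290, 382, 415, 400 and 442 FPKM in labelled knockdown livers. Labelled knockdown 1 was again lowest, and the groups overlapped (log2 difference -0.23, limma adjusted p = 0.194; 95% interval of the ratio 0.718 to 1.02). Its inhibitory kinase Eef2k was low, at 1.17 ± 0.134 and 0.949 ± 0.201 FPKM (SD, n = 5 each; limma adjusted p = 0.221).

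The methyltransferases that modify eEF1A and eEF2 made up the rest of the elongation list. Of 5 tested, 0 were called (limma; also 0 at an unadjusted p under 0.05) and 4 lay above 0. The most abundant, Eef1akmt4, was at 10.04, 7.10, 7.11, 6.97 and 9.44 FPKM in control livers and 8.39, 7.10, 9.15, 8.73 and 10.7 FPKM in labelled knockdown livers, which overlapped (limma adjusted p = 0.567). Its locus also gives the readthrough gene Eef1ece2, listed at or near 0.

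The libraries were not equal across these genes. Control 5 held the highest of all 10 values for 26 of the 66 tested factors. Labelled knockdown 1 held the lowest for 19 and labelled knockdown 2 for 14. Labelled knockdown 4 held the lowest of the 10 for 0 factors and the highest of its group for 28. Labelled knockdown 4 thus lay nearest to the control livers for many factors, and without it the lower initiation factors called rose from 3 to 9: Eif1a, Eif2ak3, Eif2s3x, Eif3a, Eif3c, Eif4b, Eif4g1, Eif4g2 and Eif5. Lower calls over all genes rose as well in that fit, from 9.65% to 12.9%.

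**Figure D4:**
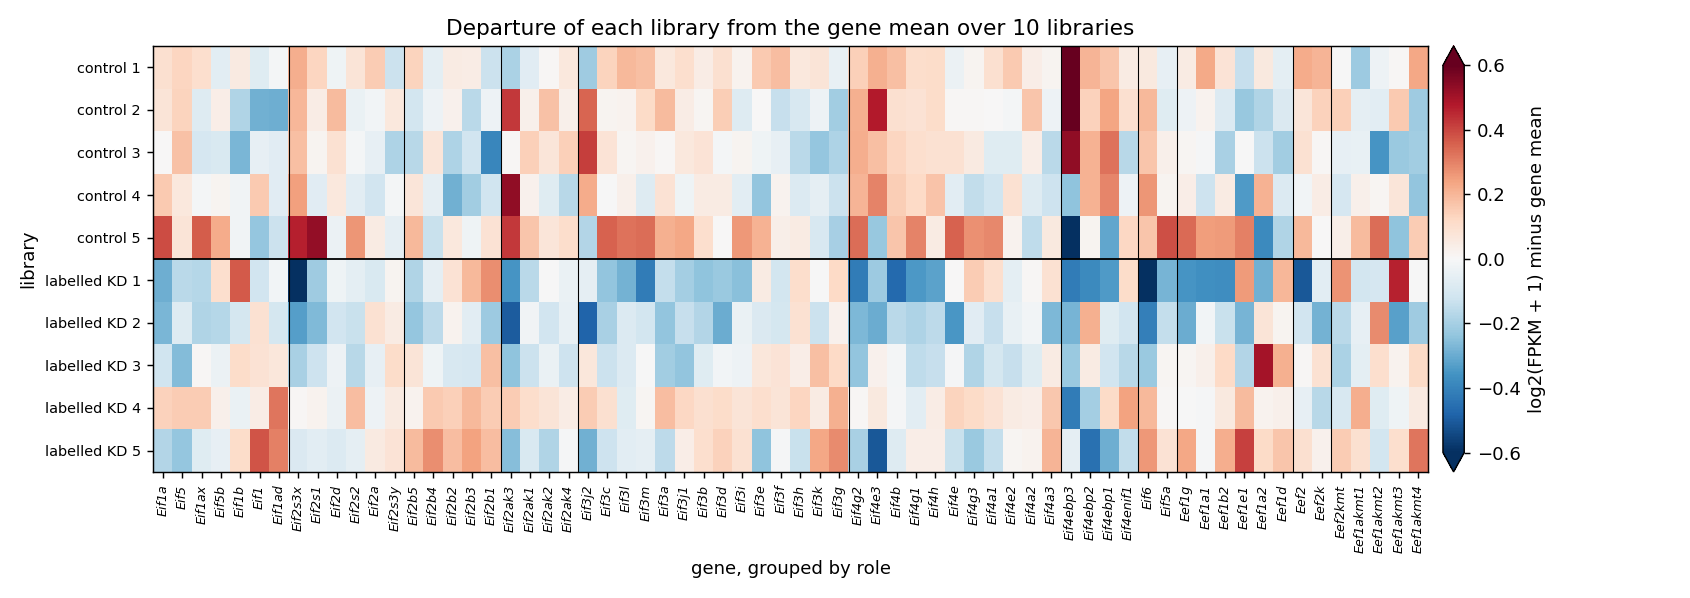
Heat map of the log2 departure of each tested factor from its mean over the 10 libraries, with genes in columns by role and libraries in rows; colours stop at 0.6 in either direction. Control 5 is high and labelled knockdown 1 and 2 are low for many genes, and labelled knockdown 4 is the highest of its group for 28 of the 66.

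Transcript length moved with these differences. Over the 66 tested factors, the Spearman correlation between the length of the longest annotated transcript and the log2 difference was -0.36. It was -0.30 over the 53 initiation factors and -0.07 over the 13 elongation factors. Over 13187 tested genes with a length it was -0.32. The points share the same 10 libraries. Of the factors with transcripts of at least 4000 bases, 17 of 17 lay below 0, beside 71.2% of all genes of that length. Of those under 2000 bases, 10 lay above 0 and 8 below, beside 35.5% of all such genes below 0. Measured in each library, the trend parted by group. Expression per doubling of length departed by 0.03 ± 0.01 (log2, SD, n = 5) in control and by -0.03 ± 0.02 in labelled knockdown libraries. The ranges did not overlap (exact permutation test, two-sided p = 0.00794, the smallest that 252 assignments allow). Whether the trend came from the making of the libraries or from the livers was not tested.

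When each library's trend with length was removed, the median over initiation factors moved from -0.11 to -0.02 and that over elongation factors from 0.04 to -0.04. Over all genes the median was 0.004. The Spearman correlation with length was then -0.10 over initiation factors and 0.40 over elongation factors. Of the 5 called genes, Eif4g2 (log2 difference -0.33, limma adjusted p = 0.0326) and Eef1d (0.31, limma adjusted p = 0.0233) passed in that fit, beside 5.46% of all genes lower and 6.78% higher. Eif2s3x (-0.43, limma adjusted p = 0.0514), Eif3g (0.21, limma adjusted p = 0.0639) and Eif4g1 (-0.17, limma adjusted p = 0.246) kept their direction and did not pass. The longest transcripts of Eif2s3x and Eif2s3y are 3647 and 3114 bases.

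**Figure D5:**
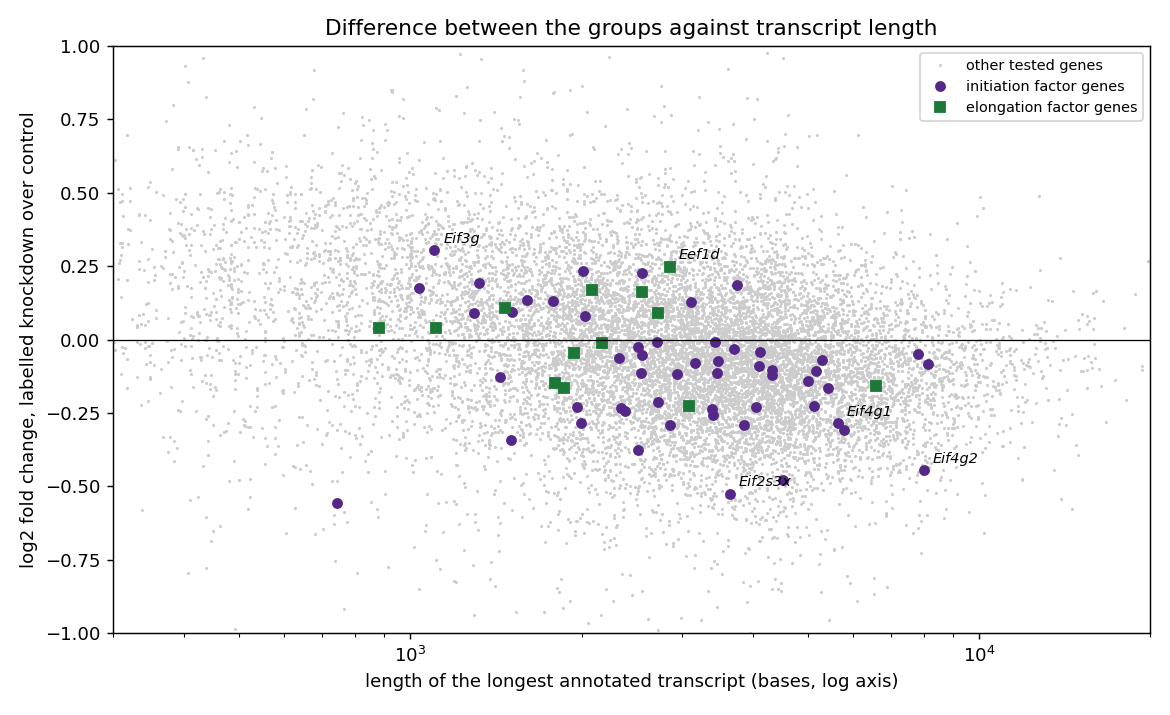
Log2 difference (labelled knockdown minus control) against length of the longest transcript in bases (log axis), for tested genes in grey and translation factors in colour; 318 genes outside the axes are not drawn. All 17 factors with transcripts of at least 4000 bases lie below 0.

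Other genes of translation were read from the same fit. Of 47 listed, 46 were tested, and 3 were higher and 7 lower, beside the same background of 7.13% and 9.65%. Termination and recycling held 3 of the lower genes: Gspt1 (eRF3) was at 18.2 ± 1.9 and 11.9 ± 1.26 FPKM (log2 difference -0.57, limma adjusted p = 0.00778; SD, n = 5 each), Etf1 (eRF1) at 34.3 ± 3.34 and 25.3 ± 3.23 FPKM, and Hbs1l was the third. Its partner in ribosome rescue, Pelo, was higher, at 11.7 ± 1.75 and 17.8 ± 3.92 FPKM (SD, n = 5 each). Among partners of the cap and the poly(A) tail, 2 of 13 were lower: the helicase Ddx3x (log2 difference -0.46, limma adjusted p = 0.0141) and Paip2b, an inhibitor of poly(A)-binding protein, at 4.40 ± 0.456 and 2.62 ± 0.493 FPKM (SD, n = 5 each; limma adjusted p = 0.00944).

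In the signalling group of 10 genes, Mtor and its partner Rptor were lower and Atf4, whose mRNA is translated more when eIF2 is phosphorylated, was higher. Atf4 was at 80.2 ± 5.94 FPKM in control and 113 ± 26.6 FPKM in labelled knockdown livers (SD, n = 5 each). Of the genes that modify eIF5A and eEF2, 1 of 9 was higher: Dph3, which serves diphthamide synthesis on eEF2. The mitochondrial factors (7) and the selenocysteine factors (2) had 0 calls. With the length trend removed, the list held 6 higher and 3 lower genes. Mtor, Rptor and Atf4 did not pass in that fit (limma adjusted p = 0.125, 0.245 and 0.0568), nor did Etf1 and Hbs1l (0.0608 and 0.0815). The S6 kinase genes Rps6kb1 and Rps6kb2 passed as higher there (limma adjusted p = 0.0146 and 0.0235), as did Gigyf1 and Secisbp2 (0.0473 and 0.0461).

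Markers of cell types were read beside these results. The defining hepatocyte markers were abundant in every library, and of 7 tested, Ttr was higher and Cps1 lower. Lower calls were made for 2 of 6 tested Kupffer cell markers, 2 of 7 stellate cell markers and 1 of 6 endothelial markers. Over all tested genes, 9.65% were called lower and 7.13% higher. In the same lists, Marco, Des and Stab2 lay above 0 without a call (log2 difference 0.70, 0.08 and 0.04). Calls were made for 0 of 4 cholangiocyte, 0 of 2 T and NK cell and 0 of 2 neutrophil markers. B cell markers were too low to test. The 4 markers of dividing cells were all lower, with a summed level of 7.71 ± 3.35 and 1.67 ± 0.852 FPKM (SD, n = 5 each). The share of FPKM from mitochondrially encoded genes was 14.2 ± 1.57% in control and 16.4 ± 3.06% in labelled knockdown libraries (SD, n = 5 each; exact permutation test, two-sided p = 0.175), with 21.7% in labelled knockdown 1. The part of cell makeup, of the mitochondrial share and of the length trend in the results above was not tested beyond the values given.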

How the data were processed

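Liver RNA from 10 mice (5 a group) was sequenced after oligo(dT) selection and dUTP strand marking, per the labels' protocols; groups and replicate numbers come from the titles. The submitters' processing notes name StringTie 1.3.4d, HISAT2 2.0.4 and cutadapt 1.9, and a human genome build although the gene identifiers are mouse; a strand setting is not stated. The deposited table holds FPKM per library, scaled by the authors for length and depth, per the file headers. It also holds the authors' fold ratio, its log2 value, and a p-value and q-value by the authors from an unnamed test.

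FPKM carries no count, so precision is the spread between mice. Low values pointed to 15.5 to 19.2 M fragments a library (M, 1e6), but only 10.8 to 12.6% were whole multiples of the step (tolerance 0.02), so whole reads were not recovered. No 2 libraries were identical, and 0 columns of sample values went unused.

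Genes reaching an FPKM of 0.5 in 5 or more libraries were fitted with limma 3.58.1 (R 4.3.3) on log2(FPKM + 1), with a mean-variance trend, two-sided p and Benjamini-Hochberg adjustment over all genes; this scale understates the change of low genes. The code was tested on simulated data. Lengths are those of the longest GENCODE M21 transcript (97.9% of tested genes); the trend was removed per library by a natural spline with 4 degrees of freedom. Promoters are RefSeq windows on GRCm38.p6, matched by symbol.

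Named with every value were the called members, the most abundant member of each role and 9 pairs of paralogs (some by range only); members near the threshold were named after their values were seen. Members, lists and tests were chosen with earlier results of these data known. Same-numbered libraries of the 2 groups did not deviate together, so the main comparison is unpaired.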

Additional observations from a re-analysis of the deposited data

Results flagged for a closer look

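In 132 groups of 5 libraries (each tested factor in each group), the highest or lowest value was checked for its gap to the next value against the range of the group. The gap exceeded the 95% critical value of Dixon's test, 0.71, in 11 groups, and chance gives about 1 in 20. Of the 11, 6 were control 5, which was high for Eif5a (192 FPKM), Eef1g (97.3 FPKM), Eif4g1 (65.7 FPKM), Eif3i (19.98 FPKM) and Eif2s3x (17.9 FPKM), and low for Eif4ebp1 (22 FPKM). Labelled knockdown 1 was low for Eef1a1 (1304 FPKM), Eif3l (17.7 FPKM) and Eif3m (16.3 FPKM). Labelled knockdown 2 was low for Eif2b1 (7.19 FPKM), and labelled knockdown 4 was high for Eif3a (27.5 FPKM). The 2 called genes among these, Eif4g1 and Eif2s3x, were both highest in control 5. Without that library Eif2s3x was still called (log2 difference -0.47, limma adjusted p = 0.0330), and Eif4g1 was not (-0.24, limma adjusted p = 0.0642); the call of Eif4g1 was also lost without each of the other 4 controls.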

How the results depend on the processing

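The count of lower initiation factors was 3, and it became 1 with every gene above 0 in at least 1 library, 11 with array weights, 1 with the length trend removed and 11 at an adjusted p under 0.1. Over the fits that left out 1 library it ran from 2 to 9, with 9 without labelled knockdown 4 and 5 without control 5, where lower calls over all genes were 1736 and 1275. The count of higher initiation factors was 1, and 0 with the length trend removed and 0 to 1 over the fits that left out 1 library. The count of higher elongation factors was 1, and 0 to 1 over those fits. With the replicate block, 4 initiation factors were lower (Eif2ak3 was added) and 1 higher, and 0 elongation factors were higher (Eef1d, limma adjusted p = 0.0741). The replicate numbers pair nothing known: same-number correlations of deviations were -0.01 to 0.11. The sign turned in at least 1 fit for 17 of the 66 tested factors, of which 0 were called. Eif2b5 was at 0.00803 with array weights and from -0.105 to 0.000536 over the fits that left out 1 library. With the length trend removed, Eif1ax was at 0.00169, Eif4e2 at 0.0123 and Eif4a2 at 0.0460. Eif4a2 was also at 0.0373 with median-of-ratios scaling and 0.000202 with quantile normalization, and ran from -0.0464 to 0.0331 over the fits that left out 1 library. The cause of these changes was not tested. Over all genes, calls were 1330 higher and 2047 lower with array weights and 511 and 682 with no filter, against 960 and 1300; median-of-ratios scaling gave 1212 and 1020. No scaling moved the median of all genes by 0.1.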

Other observations

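The parting of Eif2s3x and Eif2s3y led to a look at other genes with an X-linked and a Y-linked copy, chosen after the values were seen. Ddx3x, the X-linked copy of an RNA helicase that acts in scanning, was at 28.8 ± 1.38 FPKM in control and 20.8 ± 3.14 FPKM in labelled knockdown livers (SD, n = 5 each; log2 difference -0.46, limma adjusted p = 0.0141). Its Y-linked copy Ddx3y was at 10.7 ± 0.645 and 9.37 ± 1.11 FPKM (SD, n = 5 each; log2 difference -0.17, limma adjusted p = 0.180). The histone demethylase pair Kdm5c and Kdm5d had log2 differences of -0.24 and 0.12 (limma adjusted p = 0.131 and 0.289). Kdm6a and Uty had -0.03 and -0.04 (limma adjusted p = 0.826 and 0.774). Of these 3 pairs, Ddx3x was the only gene called; with the length trend removed it passed again (-0.36, limma adjusted p = 0.0290) and Kdm5d passed as higher (0.23, limma adjusted p = 0.0412). The difference between the copies of a pair was not tested. Sex is not given, but the Y-linked copies were read in every library, so all 10 livers carried a Y chromosome. Ddx3y was between 9.90 and 11.3 FPKM in control livers and between 7.90 and 10.7 FPKM in labelled knockdown livers.

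The authors' deposited table gave a q-value of 0.00168 for Eif4g2, 0.00272 for Eif3g, 0.00904 for Eef1d and 0.0180 for Eif2s3x, 4 of the 5 genes called here. The authors' deposited table gave 0.198 for Eif4g1 and, for a gene not called here, 0.0416 for Eif2ak3.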
